A study of Rattus norvegicus with 18 samples.

Results

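The genes described here are 7 markers and regulators of the cell cycle, followed across intestinal tissue of irradiated and untreated rats. They were chosen by Ensembl identifier and not by a threshold on their values, and each lay on the chromosome given with its symbol, so all 7 were kept, of 30562 genes in the count table. There were 6 libraries from rats given 10 Gy of X-rays in a single dose and afterwards Changbing Formula (irradiated plus formula), 6 from rats given the same dose alone (irradiated) and 6 from rats that received neither (control). All were wild-type Sprague-Dawley rats, an outbred stock, and RNA came from the intestine. The labels name no segment, sex, age or time after irradiation, nor the composition, dose or duration of the formula. All 18 free-text descriptions call the rats untreated, against the title and treatment field of 12 samples, and groups follow the titles. The count table gives no gene symbols, so the tissue label could not be checked against marker genes.

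The lining of the intestine is renewed from crypts, pits in which stem cells and their daughters divide before the daughters move out and differentiate. Radiation damages dividing cells first, and the loss of crypt cell division followed by its recovery is the classical course of intestinal radiation injury. Passage through the cell cycle is driven by cyclins, which rise and decline and switch on cyclin-dependent kinases. Genes needed late in the cycle are shut in resting cells by repressor complexes on their promoters and opened together when cells divide. The roles given below are known mainly from human and mouse cells. These genes are not confined to the epithelium, and most of them are also expressed by dividing lymphocytes.

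Of the 7, Ccnd1 encodes cyclin D1, which acts in early G1 with Cdk4 and Cdk6. Pcna encodes the sliding clamp of DNA polymerases and also serves in DNA repair. Ccna2 encodes cyclin A2, of S phase and G2, and Cdk1 encodes the kinase that drives entry into mitosis with Ccnb1, cyclin B1. Top2a encodes the topoisomerase that untangles chromosomes, and Mki67 encodes Ki-67, a protein of the mitotic chromosome surface widely stained to count dividing cells. In the deposited annotation (mRatBN7.2), Ccnd1 (ENSRNOG00000020918) lies at chr1:200089002-200098602 on the minus strand and Pcna (ENSRNOG00000021264) at chr3:119498810-119502995 on the minus strand. Ccna2 (ENSRNOG00000015423) lies at chr2:119426089-119433577, minus strand, and Cdk1 (ENSRNOG00000000632) at chr20:19266248-19281408, plus strand. Ccnb1 (ENSRNOG00000058539) lies at chr2:31912193-31921172, Top2a (ENSRNOG00000053047) at chr10:83945735-83976874 and Mki67 (ENSRNOG00000028137) at chr1:190496319-190522762, all on the minus strand. Ccna2 shares exon bases with 1 gene on the opposite strand and the counting used no strand, so its values are less certain than those of the other 6, which share exon bases with 0 genes.

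Bases upstream of the annotated gene start are shown for the 5 genes with an entry in the RefSeq promoter table (GRCr8), 4 of which varied together between libraries while Pcna varied less. Each sequence is the 250 bases before the start, 5′ to 3′ on the gene's strand. They come from chr1:199952594-199952843 for Mki67, chr10:84473094-84473343 for Top2a, chr20:19265043-19265292 for Cdk1, chr2:33655226-33655475 for Ccnb1 and chr3:139955821-139956070 for Pcna. Capitals mark the letters of 4 motifs on either strand: the CCAAT box (CCAAT or ATTGG), bound by NF-Y; the cell cycle genes homology region, CHR (TTTGAA or TTCAAA); an E2F site (TTTNGCGC or GCGCNAAA); and the GC box (GGGCGG or CCGCCC), bound by Sp1.
Mki67: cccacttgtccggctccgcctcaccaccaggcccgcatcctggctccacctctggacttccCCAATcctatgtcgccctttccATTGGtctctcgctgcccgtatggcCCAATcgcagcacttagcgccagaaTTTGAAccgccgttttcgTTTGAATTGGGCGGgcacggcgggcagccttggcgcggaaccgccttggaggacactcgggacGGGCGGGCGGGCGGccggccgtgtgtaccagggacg
Top2a: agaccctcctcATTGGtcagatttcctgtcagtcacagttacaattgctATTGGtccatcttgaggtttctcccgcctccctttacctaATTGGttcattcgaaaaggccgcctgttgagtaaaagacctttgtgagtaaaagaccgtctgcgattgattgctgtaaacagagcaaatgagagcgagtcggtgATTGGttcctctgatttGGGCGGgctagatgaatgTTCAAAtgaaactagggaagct
Cdk1: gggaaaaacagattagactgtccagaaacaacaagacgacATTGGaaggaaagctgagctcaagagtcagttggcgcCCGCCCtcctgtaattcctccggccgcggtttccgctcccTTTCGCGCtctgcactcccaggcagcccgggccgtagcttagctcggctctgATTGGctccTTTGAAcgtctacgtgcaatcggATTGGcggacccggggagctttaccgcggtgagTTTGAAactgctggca
Ccnb1: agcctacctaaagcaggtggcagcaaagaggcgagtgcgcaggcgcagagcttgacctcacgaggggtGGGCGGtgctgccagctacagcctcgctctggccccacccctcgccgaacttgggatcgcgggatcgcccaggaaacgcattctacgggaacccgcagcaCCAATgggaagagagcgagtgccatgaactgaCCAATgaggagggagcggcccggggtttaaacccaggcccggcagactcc
Pcna: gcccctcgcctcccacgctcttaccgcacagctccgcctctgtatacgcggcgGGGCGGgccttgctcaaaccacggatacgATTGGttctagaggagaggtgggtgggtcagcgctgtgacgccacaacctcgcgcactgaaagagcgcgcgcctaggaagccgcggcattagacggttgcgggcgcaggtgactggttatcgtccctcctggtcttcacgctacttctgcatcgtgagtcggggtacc

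All 5 sequences held at least 1 CCAAT box, against 34.0% of 33469 RefSeq rat promoters of the same length. Mki67 and Top2a had 4 each, Cdk1 had 3, Ccnb1 had 2 and Pcna had 1, and 9.42% of all promoters had 2 or more. CHR letters were present in 3 of the 5, with 2 matches in Mki67, 2 in Cdk1 and 1 in Top2a, against 16.2% of all promoters. The E2F letters occurred once, in Cdk1, against 1.04% of all promoters. All 5 sequences held a GC box, against 30.5% of all promoters. In Mki67 a CHR match, a CCAAT box and a GC box run into each other and share bases, and 3 GC boxes nearer the start overlap. These are matches of letters and not measured binding sites, and a window without a match says only that the letters are absent from it. Ccna2 and Ccnd1 are named without a sequence.

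**Figure D1:**
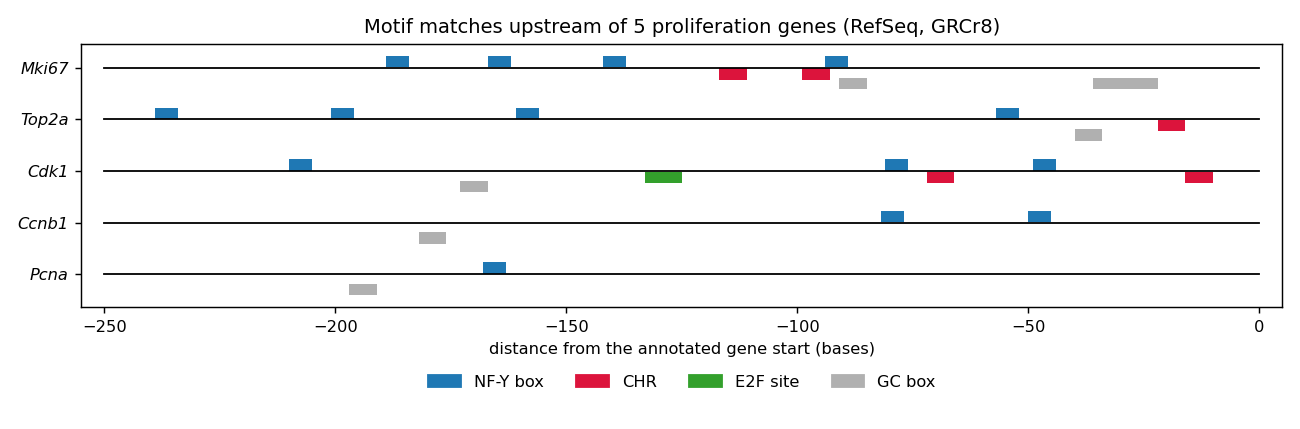
Positions of the motif matches in the 250 bases upstream of 5 genes, in bases from the annotated gene start. Blue bars are CCAAT boxes (NF-Y boxes), red bars CHR matches, the green bar an E2F match and grey bars GC boxes; Mki67 and Top2a have 4 blue bars each and Pcna has 1.

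Total counts per library were between 33598572 and 48398184, and the 7 genes had between 277 and 17750 counts in each library, well above the low-count filter, which all 7 passed. Control 2 and irradiated 4 stood apart from the other 16 libraries over all genes. On the first principal component, which held 40.2% of the variance, irradiated 4 scored 216 and control 2 scored 176, and the others scored between -52.9 and 34.2. They also had the lowest shares of mitochondrial counts, 5.77% in irradiated 4 and 9.30% in control 2, and the highest share was 39.7% in irradiated 5. Results that rest on control 2 and irradiated 4 are given with and without them. The p-values of the group comparisons set a difference between groups against the spread between these libraries. Nothing in the labels says outright that each library came from its own animal.

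Levels of different genes were ordered per exon length, as TPM, counts scaled to exon length and library. Over the 16 other libraries, Ccnd1 had the highest median, 105 TPM (range 51.5 to 161), and Pcna followed with 63.8 TPM (43.9 to 91.4). Cdk1 came next with 16.5 TPM (9.11 to 57.5), and Top2a and Ccna2 lay close together at 11.9 TPM (5.62 to 49.4) and 11.7 TPM (5.38 to 37.5). Ccnb1 had 8.95 TPM (4.25 to 47.8) and Mki67 the lowest median of the 7, 5.42 TPM (1.56 to 18.5). The ends of this order were steady: Ccnd1 exceeded Pcna in 15 of 18 libraries, Pcna exceeded Cdk1 in 18 of 18, Cdk1 stood at the same rank in 18 of 18, and Mki67 was lowest in 17 of 18. The middle was not: Top2a exceeded Ccna2 in 12 of 18 libraries and Ccna2 exceeded Ccnb1 in 13 of 18, so these neighbours were not set apart by their spread.

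In control 2 and irradiated 4 this order changed. Pcna reached 419 TPM in irradiated 4 and 269 TPM in control 2, the highest of the 7 genes in both. Top2a was next, with 156 TPM in irradiated 4 and 98.8 TPM in control 2. Ccnd1, the most abundant in 15 of 18 libraries, had 49.8 TPM in irradiated 4, where it ranked 6 of 7, and 38.0 TPM in control 2, where it ranked 7 of 7. Irradiated 1 was the remaining library in which Pcna, with 71.4 TPM, exceeded Ccnd1, with 51.5 TPM.

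Values between libraries of the same gene are given as CPM, counts scaled to the library total and edgeR's TMM factor. Among the genes of S phase, G2 and mitosis, Ccna2 lay between 10.1 and 31.0 CPM (median 13.8) in irradiated plus formula libraries, between 17.9 and 87.1 CPM (median 30.5) in irradiated libraries and between 10.4 and 72.4 CPM (median 19.3) in control libraries. Cdk1 lay between 7.50 and 18.8 CPM (median 10.2) in irradiated plus formula libraries, between 10.3 and 65.6 CPM (median 23.2) in irradiated libraries and between 7.98 and 55.0 CPM (median 12.6) in control libraries. Ccnb1 lay between 8.90 and 31.1 CPM (median 13.6) in irradiated plus formula libraries, between 16.4 and 87.3 CPM (median 27.0) in irradiated libraries and between 14.2 and 70.9 CPM (median 17.1) in control libraries. For all 3 genes the irradiated libraries had the highest median and the irradiated plus formula libraries the lowest, with ranges that overlapped between all groups.

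Top2a lay between 20.7 and 72.1 CPM (median 26.6) in irradiated plus formula libraries, between 26.6 and 324 CPM (median 60.7) in irradiated libraries and between 19.5 and 241 CPM (median 41.6) in control libraries. Mki67 lay between 9.84 and 62.0 CPM (median 25.0) in irradiated plus formula libraries, between 28.8 and 166 CPM (median 49.4) in irradiated libraries and between 13.8 and 167 CPM (median 27.3) in control libraries. The highest irradiated library of both was irradiated 4 and the highest control library was control 2, and the other 5 control libraries overlapped the irradiated plus formula libraries. Irradiated plus formula 5 was the highest library of its group for all 7 genes, and irradiated 5 was the lowest irradiated library for 5 of the 7: Mki67, Top2a, Cdk1, Ccnb1 and Ccna2.

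Pcna lay between 42.4 and 67.3 CPM (median 50.5) in irradiated plus formula libraries, between 45.9 and 223 CPM (median 60.9) in irradiated libraries and between 38.6 and 168 CPM (median 49.5) in control libraries. Outside irradiated 4 and control 2 its 16 values stayed within a 1.74-fold range, against a 7.44-fold range for Mki67, 7.06-fold for Ccnb1 and 5.85-fold for Top2a. Ccnd1 lay between 82.4 and 151 CPM (median 116) in irradiated plus formula libraries, between 39.7 and 150.0 CPM (median 121) in irradiated libraries and between 35.5 and 162 CPM (median 135) in control libraries. It was the gene of the 7 with its lowest values, not its highest, in irradiated 4 and control 2, and irradiated 1 followed with 66.5 CPM.

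**Figure D2:**
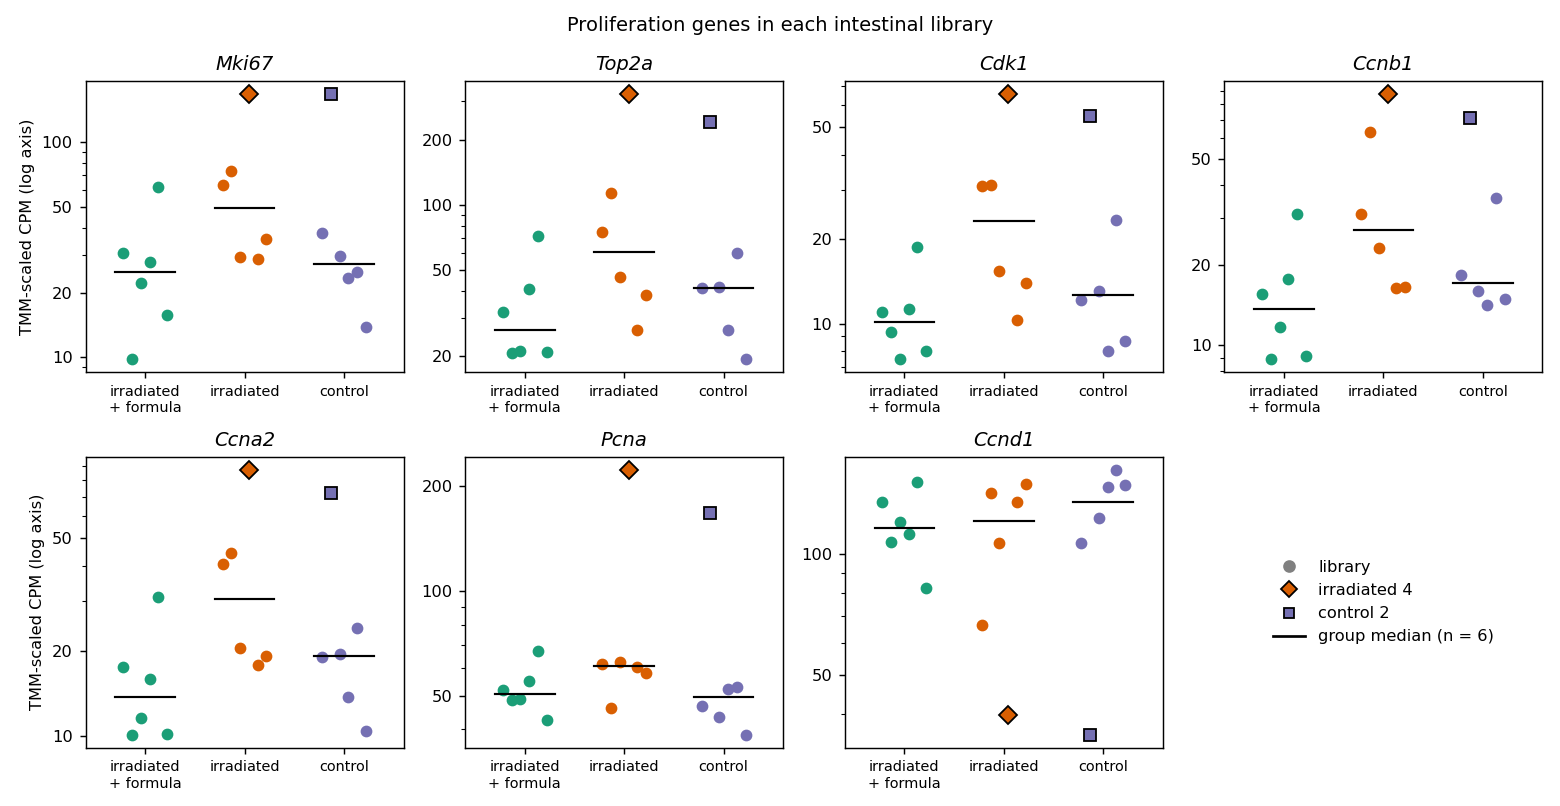
TMM-scaled CPM (log axes) of the 7 genes in each library, with irradiated plus formula at the left, irradiated in the middle and control at the right; points are libraries and lines group medians (n = 6 each). Irradiated 4 (diamond) and control 2 (square) lie above all 16 other libraries for 6 genes, reaching 324 CPM (irradiated 4) and 241 CPM (control 2) for Top2a, and below them for Ccnd1, at 39.7 CPM (irradiated 4) and 35.5 CPM (control 2).

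The 6 genes other than Ccnd1 were above all 16 other libraries in both irradiated 4 and control 2, as were 18.9% of the 16593 genes tested. Ccnd1 was below all 16 in both, as were 17.4% of genes. In irradiated 4, relative to the median of the 16, Top2a was 8.20-fold higher, Mki67 5.74-fold, Cdk1 5.60-fold, Ccnb1 5.30-fold, Ccna2 4.71-fold and Pcna 4.27-fold. In control 2, Top2a was 6.10-fold higher, Mki67 5.75-fold, Cdk1 4.70-fold, Ccnb1 4.30-fold, Ccna2 3.92-fold and Pcna 3.21-fold, so Top2a was raised most and Pcna least in both. Ccnd1 was at 0.308 of that median in irradiated 4 and at 0.275 in control 2. In bulk tissue such a difference can come from the number of dividing cells or from the RNA in each, and these cannot be told apart here. The labels name no segment for any library, so they do not say whether irradiated 4 and control 2 came from the same stretch of intestine as the other 16. The spread that edgeR estimated within groups, control 2 and irradiated 4 included, gave a biological coefficient of variation of 75.9% for Top2a, 71.0% for Mki67, 60.1% for Ccnb1, 60.0% for Cdk1, 58.4% for Ccna2, 49.8% for Pcna and 42.1% for Ccnd1, against a median of 44.4% over all tested genes.

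Irradiated against control libraries asks what irradiation left changed in proliferation at collection. In irradiated libraries, 6 of the 7 genes had fitted levels above control and Ccnd1 had a fitted level below, and 0 of 7 passed edgeR's quasi-likelihood test (Benjamini-Hochberg adjusted p = 0.998 for each), where 0% of all genes passed. Below an unadjusted p of 0.05 were 0 of 7, against 1.93% of all genes. Here and below, limma-voom was run with library quality weights, which lower the influence of libraries that scatter more around the fit. It likewise gave 0 of 7, against 10.96% of all genes. DESeq2, which gave no p for Pcna in any comparison, had 0 of 6, against 2.19% of all genes, and neither tool passed any of these genes after adjustment. Top2a had the largest log2 fold change, 0.54 ± 0.66 (SE), a 1.45-fold difference with a 95% interval of 0.558 to 3.78-fold. Ccna2 followed with 0.53 ± 0.49, Ccnb1 and Cdk1 both had 0.48 ± 0.50, Mki67 had 0.42 ± 0.61 and Pcna 0.35 ± 0.40, and Ccnd1 had -0.18 ± 0.33. The median of the 7 was 0.48, beside 0.01 over all tested genes.

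Single libraries decided the size and, for some genes, the sign of these values. Without control 2, 6 of 7 genes had an unadjusted p below 0.05 in the edgeR fit, as did 12.7% of all genes, and the log2 fold change of Mki67 was 1.35 and that of Top2a 1.46. Without irradiated 4, 0 of 7 did, against 3.01% of all genes, and Mki67 had -0.10, Top2a -0.26 and Pcna -0.22. With both libraries left out, the log2 fold change of Mki67 was 0.89 ± 0.43, that of Ccna2 0.77 ± 0.36 and that of Pcna 0.35 ± 0.14, and Pcna and Ccna2 were below an unadjusted p of 0.05 in edgeR, as were 7.93% of all genes. In none of these 3 fits did any of the 7 pass after adjustment, the lowest edgeR adjusted p being 0.388.

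Irradiated plus formula against irradiated libraries asks what the formula changed after irradiation. In irradiated plus formula libraries the fitted levels of 6 of the 7 genes were below those of irradiated libraries, and 0 of 7 passed edgeR's test, with adjusted p between 0.770 and 0.915, where 0% of all genes passed. Top2a had a log2 fold change of -1.59 ± 0.67 (SE), that is 0.332-fold with a 95% interval of 0.125 to 0.884. Cdk1 had -1.35 ± 0.51, Ccnb1 -1.33 ± 0.51, Ccna2 -1.25 ± 0.49 and Mki67 -1.24 ± 0.61. Pcna had -0.70 ± 0.41 and Ccnd1, the gene of early G1, 0.15 ± 0.33, a value that was -0.039 without control 2 and irradiated 4. The median of the 7 was -1.25, beside -0.02 over all tested genes.

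Without adjustment, 4 of the 7 genes and 5.59% of all genes were below 0.05 in the edgeR fit, the 4 being Cdk1, Ccnb1, Ccna2 and Top2a. Without adjustment DESeq2 had 5 of 6 tested genes below 0.05, against 6.24% of all genes, and limma-voom 0 of 7, against 5.18%, and after adjustment both had 0. The 4 genes vary together between libraries, as given below, and are not 4 separate observations. In a two-sided exact permutation test of mean log2 CPM over the 12 libraries, unadjusted p was 0.0260 for Ccna2, 0.0303 for Cdk1, 0.0476 for Ccnb1, 0.0498 for Mki67, 0.0714 for Top2a, 0.132 for Pcna and 0.485 for Ccnd1, and the smallest p the design allows is 0.00216. For Cdk1, 0 of 6 irradiated plus formula libraries lay above the median of the irradiated libraries, and for Ccna2, Ccnb1, Top2a and Mki67 1 of 6 did, in each case irradiated plus formula 5. Without irradiated 4, the log2 fold change was -0.80 ± 0.59 for Top2a, -0.72 ± 0.58 for Mki67 and -0.14 ± 0.31 for Pcna. In that fit 0 of 7 had an unadjusted edgeR p below 0.05, against 3.21% of all genes. With only control 2 left out, 6 of 7 did, against 8.55% of all genes. With only irradiated 5 left out, 5 of 7 did, against 8.39%. Without irradiated 4 and control 2, 3 of 7 did, against 5.07% of all genes, with log2 fold changes of -0.95 ± 0.41 for Ccnb1, -0.92 ± 0.35 for Cdk1 and -0.85 ± 0.34 for Ccna2, and with irradiated 1 also left out 0 of 7 did, against 2.44% of all genes.

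Irradiated plus formula against control libraries asks how far the treated rats stood from untreated ones. All 7 fitted log2 fold changes were below 0 in irradiated plus formula libraries, and 0 of 7 passed, with edgeR adjusted p between 0.877 and 0.992, against 0.0121% of all genes. Below an unadjusted p of 0.05 were 0 of 7 in edgeR, against 5.71% of all genes, 0 of 7 in limma-voom, against 21.9%, and 0 of 6 tested in DESeq2, against 5.51%. Top2a had -1.05 ± 0.66 (SE), Cdk1 -0.87 ± 0.50, Ccnb1 -0.85 ± 0.50, Mki67 -0.82 ± 0.61 and Ccna2 -0.72 ± 0.49, and Pcna had -0.35 ± 0.40 and Ccnd1 -0.03 ± 0.33. These values depended on control 2. Without control 2 and irradiated 4, Mki67 had 0.15 ± 0.41, Pcna 0.19 ± 0.14, Top2a -0.10 ± 0.42, Ccna2 -0.08 ± 0.34, Cdk1 -0.22 ± 0.35, Ccnb1 -0.31 ± 0.41 and Ccnd1 -0.19 ± 0.20. The 3 comparisons share libraries, the irradiated group entering the first and second and the control group the first and last, so their values are set side by side and not counted as repeats.

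A test for any difference among the 3 groups also passed 0 of the 7 genes, with edgeR adjusted p between 0.930 and 0.967, against 0.0121% of all genes, and at an unadjusted p below 0.05 it held 0 of 7, against 3.91%. DESeq2 passed 0 of 6 tested genes, with 4 below 0.05 without adjustment, against 4.43% of all genes, and limma-voom passed 0 of 7, with 0 below 0.05 without adjustment, against 17.5%. Groups without any overlap in CPM were found for 0 of the 7 genes in each comparison. Over all genes, 0.00603% had no overlap between irradiated and control libraries, 0.187% between irradiated plus formula and irradiated libraries, and 0.832% between irradiated plus formula and control libraries.

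**Figure D3:**
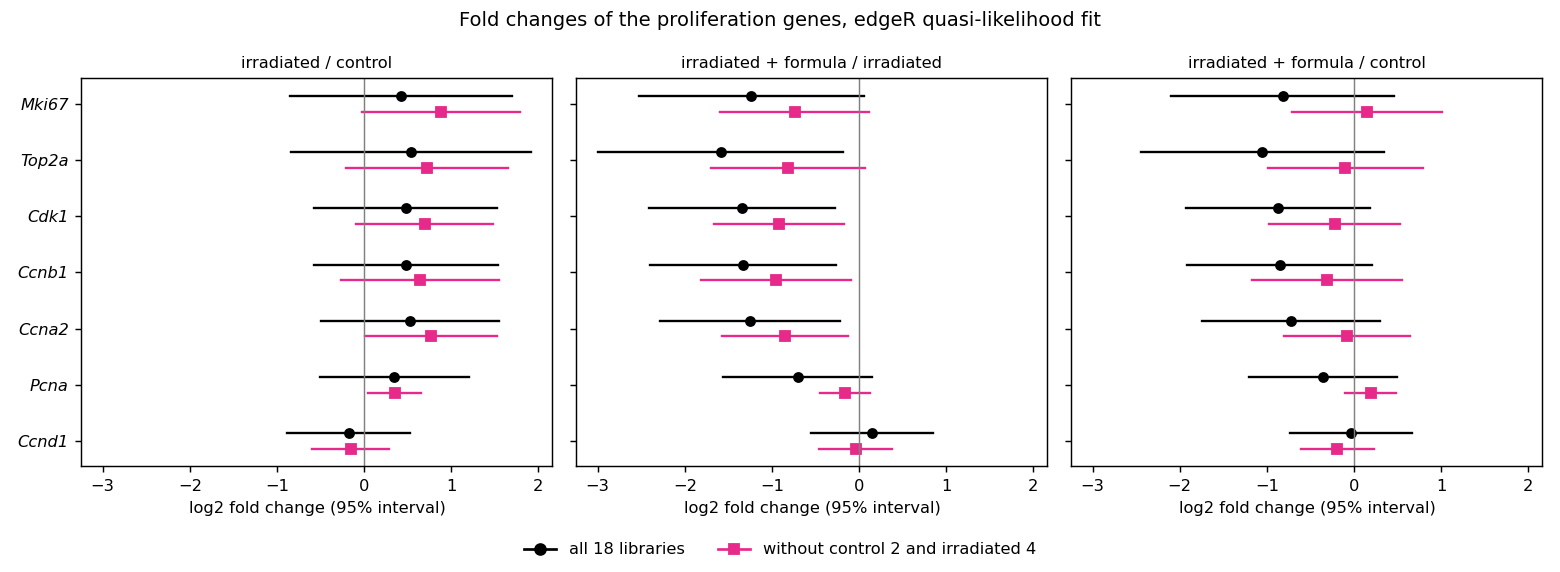
Log2 fold changes (horizontal axes) of the 7 genes with 95% intervals from the edgeR fit, for irradiated over control, irradiated plus formula over irradiated, and irradiated plus formula over control; black points use all 18 libraries and pink squares leave out control 2 and irradiated 4. In the middle panel Top2a is at -1.59 with all libraries and at -0.82 without those libraries, and in the right panel Mki67 is at -0.82 and 0.15.

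The genes of S phase, G2 and mitosis varied together from library to library. Over the 16 libraries without control 2 and irradiated 4, Pearson's r of log2 CPM was between 0.77 and 0.97 for the 10 pairs among Mki67, Top2a, Cdk1, Ccnb1 and Ccna2, and Spearman's rho between 0.76 and 0.96. All 10 pairs passed a two-sided permutation test with 100000 resamples (highest adjusted p = 0.00103 for r and 0.00189 for rho, Benjamini-Hochberg over 21 pairs). Top2a and Ccna2 were closest (r = 0.97), and Mki67 and Cdk1 were least close of the 10 (r = 0.77). Among 14318 genes averaging 1 CPM or more, 0.0279% had an r with Mki67 as high as that of Ccna2, 0.244% as high as that of Top2a, 0.566% as high as that of Ccnb1 and 0.817% as high as that of Cdk1. With each group's mean subtracted over all 18 libraries, the 10 pairs had r between 0.87 and 0.98. The relation was thus also present within groups, but with control 2 and irradiated 4 included. It was not computed within groups without them.

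Pcna and Ccnd1 were less close to these genes. Over the same 16 libraries Pcna had r between 0.34 and 0.50 with the 5 genes, and 0 of 5 pairs passed (lowest permutation adjusted p = 0.0937). With Mki67, 7.62% of genes had an r as high as that of Pcna over the 16 libraries. The 5 pairs of Pcna were also compared on rho. Their rho over the 16 was between 0.39 and 0.48 (lowest permutation adjusted p = 0.114). Over all 18 libraries the same pairs had r between 0.74 and 0.83 and rho between 0.57 and 0.63. With TMM factors this relation was thus weaker, though still positive, without control 2 and irradiated 4, which were the libraries farthest from the median. It also depended on the scaling. With CPM scaled to library totals without TMM factors, Pcna had r between 0.60 and 0.70 with the 5 genes over the 16 libraries and 5 of 5 pairs passed (highest permutation adjusted p = 0.0203), and scaled to totals without mitochondrial genes r was between 0.39 and 0.59 and 1 of 5 passed. The 10 pairs among the 5 genes passed under both scalings over the 16 libraries, with r of at least 0.79. Ccnd1 had r between -0.80 and -0.52 with the other 6 genes over 18 libraries, with rho between -0.27 and -0.13 (lowest permutation adjusted p of rho = 0.360). Over 16 libraries its r was between -0.06 and 0.21 and 0 of 6 pairs passed, so the inverse relation rested on those libraries, with r between 0.19 and 0.44 without TMM factors, and 47.3% of genes had an r with Mki67 as high as that of Ccnd1.

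**Figure D4:**
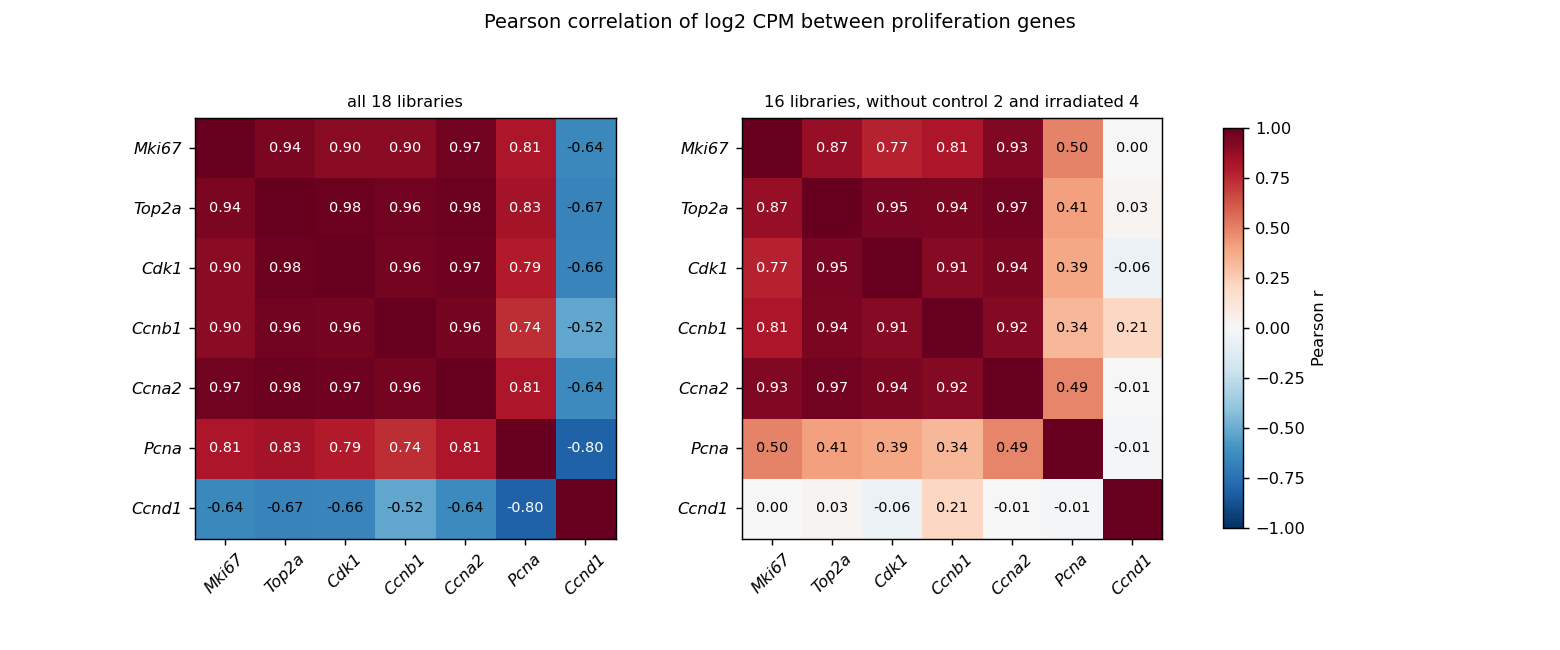
Pearson's r of log2 CPM between the 7 genes over all 18 libraries (left) and over the 16 without control 2 and irradiated 4 (right); red is positive and blue negative. The block of Mki67, Top2a, Cdk1, Ccnb1 and Ccna2 keeps r of at least 0.77 at the right, while the column of Ccnd1 lies between -0.80 and -0.52 at the left and between -0.06 and 0.21 at the right.

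**Figure D5:**
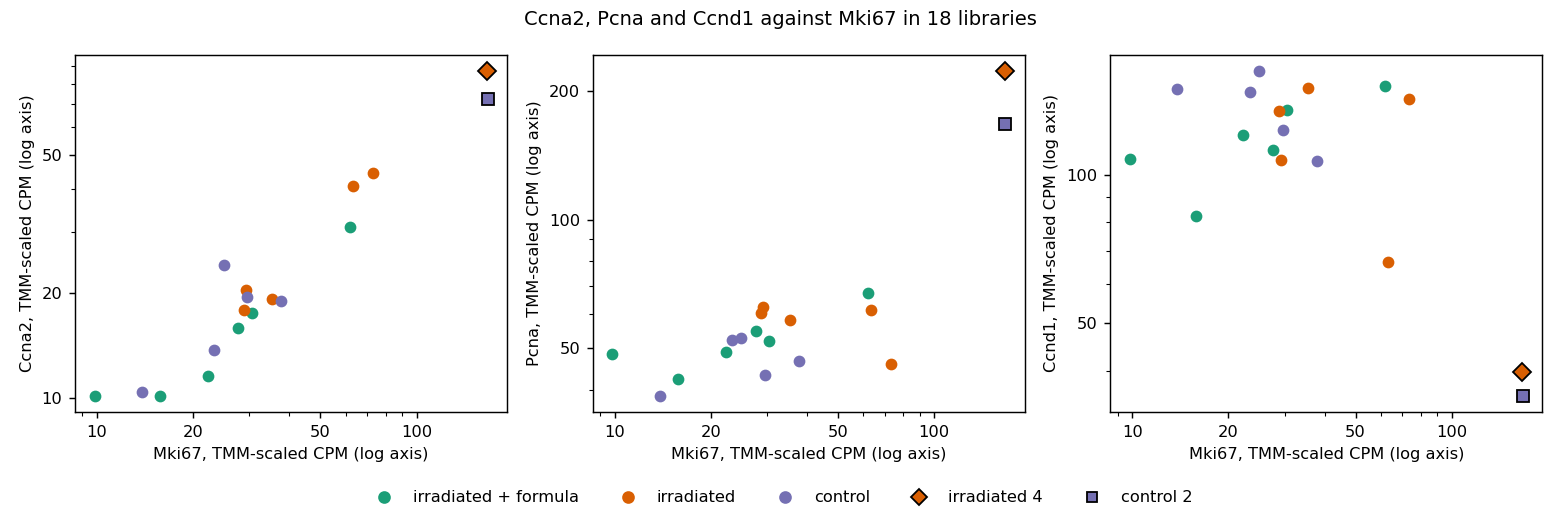
Ccna2, Pcna and Ccnd1 (vertical axes) against Mki67 (horizontal axes) in TMM-scaled CPM, log axes, 1 point for each of 18 libraries. Ccna2 follows Mki67 over its whole range, whereas Pcna stays between 38.6 and 67.3 CPM in 16 libraries and reaches 223 CPM in irradiated 4 and 168 CPM in control 2, and Ccnd1 is at 39.7 CPM in irradiated 4 and 35.5 CPM in control 2.

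The share of mitochondrial counts moved with some of these genes. CPM are scaled to totals that include mitochondrial counts, so the scaling alone can tie the 2 measures together. The relation was not computed on values scaled without mitochondrial genes. Over the 16 libraries r with that share was -0.64 for Top2a (adjusted p = 0.0415 over 7 genes, permutation test), -0.59 for Ccnb1 and for Cdk1 (adjusted p = 0.0435 for both, permutation test), and rho was -0.73, -0.73 and -0.69. Without irradiated 2 and irradiated 5, the libraries farthest from the median share, r was -0.70, -0.77 and -0.68. Ccna2 had r of -0.49, which did not pass, and rho of -0.62, which did (adjusted p = 0.0202, permutation test). Mki67 had r of -0.39, Pcna 0.03 and Ccnd1 0.11, none of which passed, and the value of Pcna was -0.49 without irradiated 2 and irradiated 5. Over all 18 libraries r was -0.81 for Top2a, -0.67 for Mki67, -0.60 for Pcna and 0.59 for Ccnd1. All 7 genes then passed on r (highest adjusted p = 0.0130, permutation test). Pcna and Ccnd1 did not pass on rho (adjusted p = 0.0709 and 0.153, permutation test). The part of the mitochondrial share in the group values was not tested. CPM were also scaled to library totals without mitochondrial genes. The 10 pairs among Mki67, Top2a, Cdk1, Ccnb1 and Ccna2 then had r between 0.91 and 0.98 over 18 libraries and between 0.79 and 0.97 over 16.

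The genes whose pattern was most like the mean of the 7 over 18 libraries had no symbol in the sources used here. Of 14312 other genes, ENSRNOG00000056069 (chr1:235124316-235176766, plus strand) had the highest rho, 0.98, and 0.97 over 16 libraries. Its median was 12.7 CPM, and it was highest in irradiated 4 at 87.5 CPM and in control 2 at 70.0 CPM. ENSRNOG00000015529 (chr4:157634928-157638799, plus strand) followed with a rho of 0.97, and 0.96 over 16 libraries, with its top values of 49.4 and 44.5 CPM again in irradiated 4 and control 2. A rho of at least 0.9 was reached by 47 genes, 0.328% of those compared. Of the 7 themselves, Ccna2 was closest to their mean (rho = 0.99), Pcna had 0.67 and Ccnd1 -0.11. Each of the 7 is part of that mean, so these values cannot be compared with those of the other genes.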

How the data were processed

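Raw counts per gene were deposited by the authors, and per the file headers they were made by featureCounts 2.1.1 from paired reads on mRatBN7.2 (Ensembl release 110), without a strand option or counting of pairs. The submitters' processing notes also name STAR, SAMtools, fastp and FastQC, whose versions are not given. Between 66.9% and 74.6% of counts from 1 to below 40 were even, so both reads of a pair were largely counted and counting error exceeds what the count implies. Of the per-sample columns, 0 were not used.

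The members and lists were chosen with earlier results of these data known. All 7 genes were named, and outside them the closest genes by Spearman's rho with their mean, by ID only. The gene table matched 0 of 30562 IDs, so the further cell cycle, stem cell and cell type lists could not be applied.

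Counts of all 18 libraries were fitted in R 4.3.3 with edgeR 4.0.16 (filterByExpr, which kept 16593 genes, TMM factors, quasi-likelihood test, no covariates), with Benjamini-Hochberg adjustment and a threshold of 0.05. Standard errors were taken from the log2 fold change and its F statistic and are approximate, as are the 95% intervals. CPM were computed from the counts with TMM factors, log2 CPM with a prior count of 2, and TPM from the table's exonic lengths. Exact permutation tests used the 12 libraries of 2 groups. The edgeR fit was tried on simulated counts for irradiated against control only. Genes were drawn independently there, with no library shifted over many genes as control 2 and irradiated 4 were, so it does not cover that feature. Alternatives were other scaling and filters, DESeq2 1.42.0, and voom with library quality weights in limma 3.58.1. Others were fits of 12 libraries, a replicate term, halved counts, scaling without mitochondrial genes, and libraries left out. The relation with the mitochondrial share and the correlations scaled without mitochondrial genes were added after the data were seen, as were the correlations that combine another scaling with control 2 and irradiated 4 left out. Depth varied between 33598572 and 48398184 counts.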

Additional observations from a re-analysis of the deposited data

Results flagged for a closer look

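In 21 checks, the CPM of a gene were compared within a group of 6 libraries. In 10, the highest library was farther from the rest than Dixon's 95% limit (a gap of 0.625 of the group's range). Chance gives about 1.05 for normally distributed values. The checks used CPM, which can be skewed toward high values, and not log2 CPM, so the 10 cannot be held against 1.05. The gaps were 0.642 to 0.907 of the range. Irradiated 4 was flagged for Mki67 at 166 CPM, Top2a at 324 CPM and Pcna at 223 CPM. Control 2 was flagged for Mki67 at 167 CPM, Top2a at 241 CPM, Cdk1 at 55.0 CPM, Ccna2 at 72.4 CPM and Pcna at 168 CPM. Irradiated plus formula 5 was flagged for Cdk1 at 18.8 CPM and Ccna2 at 31.0 CPM. The genes vary together, so these are not 10 separate observations.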

How the results depend on the processing

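The count of the 7 genes past the threshold was 0 in every comparison under every alternative run, with 6 of them tested in DESeq2. Of 378 fold changes with 1 library left out, 10 changed sign, and of 228 under other alternatives, 11 did, with 0 changing side of the threshold; the cause was not tested. DESeq2 gave no p for Pcna, whose 3 fold changes there are not among these. For irradiated against control, the log2 fold change with 1 library left out lay between -0.10 and 1.35 for Mki67, between -0.26 and 1.46 for Top2a and between -0.22 and 0.86 for Pcna, the low end without irradiated 4 and the high end without control 2. For irradiated plus formula against control the ranges were -1.22 to 0.11 for Mki67, -0.47 to 0.16 for Pcna and -0.22 to 0.10 for Ccnd1, and for irradiated plus formula against irradiated -0.024 to 0.27 for Ccnd1. Without control 2 and irradiated 4, irradiated plus formula against control gave 0.15 for Mki67 and 0.19 for Pcna, as it did with irradiated 1 also left out, and Ccnd1 against irradiated was -0.039 and, with irradiated 1 also left out, -0.19. In limma-voom with library quality weights, Mki67 had 0.064, Pcna 0.21 and Ccnd1 0.0080 for irradiated plus formula against control. The difference in mean log2 CPM of the exact permutation test was 0.093 for Ccnd1 between irradiated plus formula and control libraries.

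With the replicate number as a block, Ccnd1 had 0.00996 for irradiated plus formula against control, and 1 gene of all passed there. The numbers were not shown to pair libraries: 5 of 18 same-numbered pairs correlated above 0.1 (range -0.51 to 0.61). Of all genes, 2 passed between irradiated plus formula and control libraries. The number was 6 in a fit of 12 libraries, 44 with DESeq2 and 499 with limma-voom and its library quality weights. It was 7 without control 2 and irradiated 4, and 7 with irradiated 1 also left out. With 1 library left out it was 2 to 5 (5 without control 2, 5 without irradiated 4 and 4 without irradiated 1). DESeq2 called 12 genes between irradiated plus formula and irradiated libraries, where edgeR called 0 and 928 had an unadjusted p below 0.05.

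All 21 pairs of genes passed on Pearson's r over 18 libraries, 17 without TMM factors, 20 scaled without mitochondrial genes, and 10 without control 2 and irradiated 4 and 10 with irradiated 1 also left out. Ccnd1 then had r of 0.027 with Top2a and 0.21 with Ccnb1, and with irradiated 1 also left out 0.37 with Mki67, 0.37 with Top2a, 0.42 with Cdk1, 0.53 with Ccnb1, 0.46 with Ccna2 and 0.26 with Pcna. Without control 2 and irradiated 4, 15 pairs passed without TMM factors, where Ccnd1 had r of 0.25 with Mki67, 0.31 with Top2a, 0.19 with Cdk1, 0.44 with Ccnb1, 0.25 with Ccna2 and 0.29 with Pcna, and 11 passed scaled without mitochondrial genes, where it had 0.14 with Mki67, 0.14 with Top2a, 0.0076 with Cdk1, 0.30 with Ccnb1, 0.10 with Ccna2 and 0.23 with Pcna.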
